A study of Mus musculus with 6 samples.

Results

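The genes described here were 10 members of the NF-kB pathway, namely the subunits Nfkb1, Rel, Rela, Nfkb2 and Relb, the inhibitors Nfkbia, Nfkbib, Nfkbie and Nfkbiz, and the ubiquitin-editing enzyme Tnfaip3. They were chosen by symbol, through the Ensembl identifiers of the count table, out of 56941 identifiers listed, and all 10 had enough reads to be tested. The cells were cultures of splenic CD8+ T cells from B6 mice, for which the labels name no engineered allele, labelled as purified from the naive fraction. Every culture was stimulated for 3 days on plate-bound antibodies to CD3 and CD28 with recombinant IL-2 at 100 U/ml, and after the first 24 h received either vehicle or 5 µM sphingosine-1-phosphate (S1P), a signaling lipid that acts through G-protein-coupled receptors. There were 3 vehicle-treated and 3 S1P-treated cultures, each labelled a biological replicate. The comparison asks how added S1P changed gene expression in activated T cells. The study's methods give mouse ages under tumor implantation and adoptive transfer, and none is given for these cultures. Whether the replicates came from separate animals is not given in the sources used here, so the p-values measure the spread between these samples.

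NF-kB is a family of dimeric transcription factors held inactive in the cytoplasm by IkB proteins. In the canonical arm, antigen receptor or cytokine receptor signals activate the IKK complex, IkB is degraded, and dimers built from p50 (from Nfkb1), RelA (Rela) and c-Rel (Rel) enter the nucleus. In the non-canonical arm, receptors such as CD40, 4-1BB or OX40 stabilize the kinase NIK (Map3k14), and the precursor p100 (from Nfkb2) is processed to p52, which pairs with RelB (Relb). Several inhibitors of the pathway, among them IkB-alpha (Nfkbia) and A20 (Tnfaip3), are themselves known NF-kB target genes, and in CD8+ T cells c-Rel and RelA are known for their part in clonal expansion and cytokine production.

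The libraries held between 12048880 and 17384084 assigned read counts, and each NF-kB gene had between 316 and 9503 counts in every library. Mitochondrial transcripts took 4.10% to 4.93% of the counts in 5 libraries and 7.80% in S1P replicate 2, whose counts also differed most from the other replicates of its group (chi-square per gene 31.4 and 17.8, against 5.97 between S1P replicates 1 and 3). The summed level of 9 T cell markers, of which only Cd8a and Cd8b1 are particular to CD8+ T cells, was between 1883 and 2124 CPM (read counts scaled to library size by TMM), where Cd8a and Cd8b1 were called lower and Cd2 higher, with Cd8a at 207 to 251 CPM under vehicle and 132 to 144 CPM under S1P. Transcripts of other lymphocytes were also present. The 12 B cell markers summed to between 1364 and 1678 CPM under vehicle and between 1488 and 1697 CPM under S1P, with 2 called higher and 3 lower, and Cd4 stood at 186 to 254 CPM. Of 4 markers of CD4 T cells, Zbtb7b (0.37) and Cd40lg (0.50 on the log2 scale) were called higher and none lower. The dendritic cell markers summed to between 136 and 212 CPM, almost all from the MHC class II gene H2-Aa, with Clec9a at 0. H2-Aa was called lower (-0.33 on the log2 scale), and no dendritic cell marker was called higher. The highest of the other dendritic cell markers, Zbtb46, reached at most 5.74 CPM. H2-Aa thus cannot be assigned to dendritic cells here, and which cells it came from was not tested. The NK cell markers summed to between 2.94 and 5.00 CPM. The macrophage markers reached at most 1.32 CPM and the granulocyte markers at most 0.471 CPM, with S100a8, S100a9 and Elane at 0. The data thus went against a pure CD8+ T cell label. The study's methods name naive T cells or whole splenocytes as the start of such cultures. B cells also express NF-kB genes, and their part in the results was not tested. In bulk samples a change in the number of cells of a type and a change in RNA per cell cannot be told apart.

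Of the 10 NF-kB genes, 3 rose under S1P and none fell. Those that rose were Tnfaip3, which encodes the inhibitory ubiquitin-editing enzyme A20, Nfkbiz, which encodes the nuclear protein IkB-zeta, and Rel, which encodes the c-Rel subunit. A gene was called changed at a Benjamini-Hochberg adjusted p of at most 0.05 in edgeR's quasi-likelihood test together with a log2 fold change (log2FC) that was 0.3 or more in either direction. Of all 13299 genes tested, 12.7% were called higher, 10.4% lower and 23.1% in either direction. For the NF-kB genes the count of lower calls was also 0 in DESeq2, in limma-voom and at an unadjusted edgeR p under 0.05. At that unadjusted p 5 of them were higher, beside 2777 higher and 2605 lower of all 13299 genes tested. DESeq2 and limma-voom both called 3 higher. Rela passed the adjusted p but not the fold threshold. In 5 of the 10 genes every S1P-treated sample lay above every vehicle-treated sample, and in none did every one lie below. Of all 13299 genes tested, 3055 lay above in this way and 3004 below. Counting both directions, the groups did not overlap in 45.6% of all tested genes, a share close to that of the NF-kB genes. The median log2 fold change was 0.14 over the 10 genes and 0.01 over all genes tested.

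**Figure D1:**
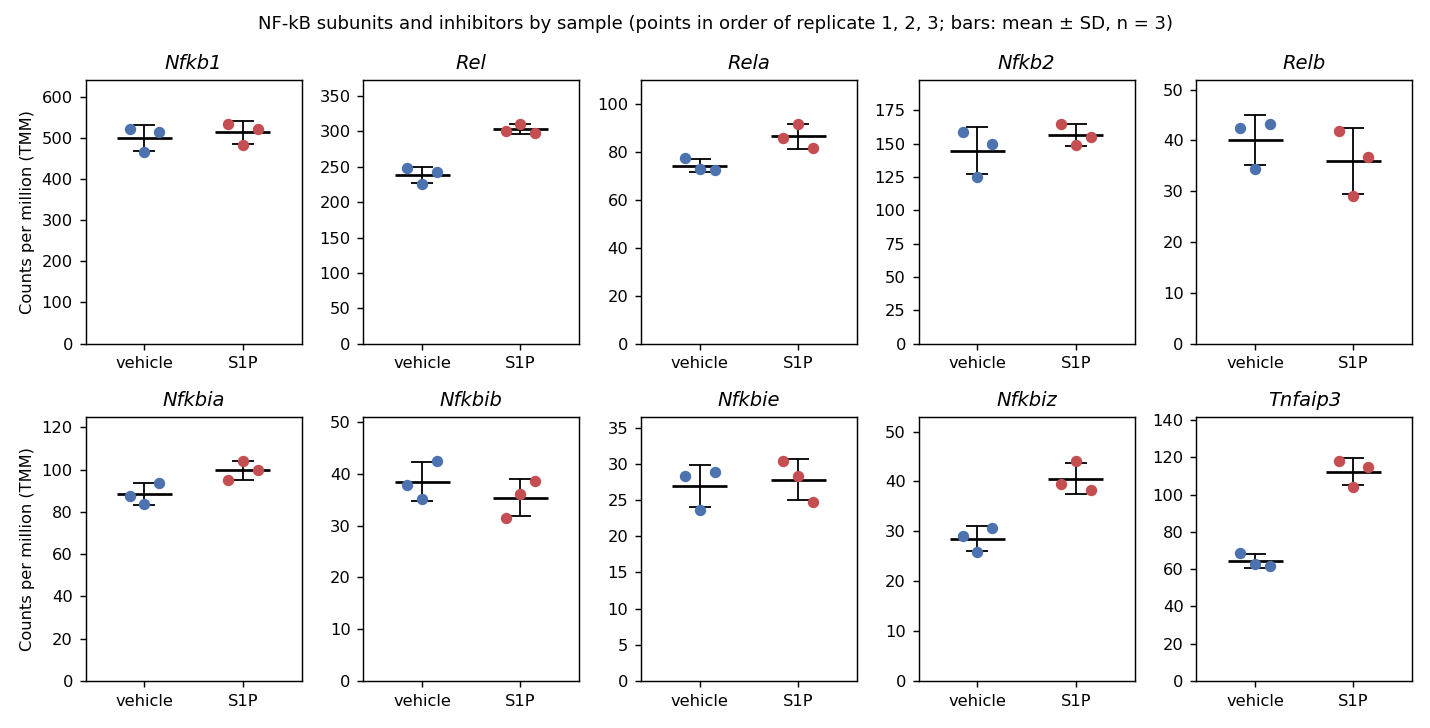
Expression of the 10 NF-kB genes in each culture, as TMM-scaled CPM on the vertical axes, which differ between panels, with 3 vehicle-treated and 3 S1P-treated samples as points and the group mean with its SD as the bar. The S1P-treated points lay above all vehicle-treated points for Rel, Rela, Nfkbia, Nfkbiz and Tnfaip3, and the groups overlapped for the other genes.

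The promoters of these genes are shown because several of them carry sequences that NF-kB itself can bind. RefSeq promoter windows on GRCm38.p6, from 250 bases before to 50 bases after an annotated start, were found for 7 of the 10 genes, while Nfkb1, Relb and Nfkbiz had no entry. The 10-base kappa-B consensus, searched on both strands, was present in a window of 5 of these 7 genes, namely Rel, Nfkb2, Nfkbia, Nfkbie and Tnfaip3, and in no window of Rela or Nfkbib. It was present in 4.51% of all 32851 windows of this length, and in a window of 5.14% of 27025 genes. The windows of Rel at chr11:23770920-23771219 (minus strand) and of Tnfaip3 at chr10:19015361-19015660 (minus strand) belong to genes that rose. Those of Nfkbia at chr12:55492598-55492897 (minus strand) and Nfkb2 at chr19:46304487-46304786 (plus strand) belong to genes that were not called. All 4 are written 5′ to 3′ on the strand of the gene with the consensus matches in capitals, and overlapping matches form 1 run.
Rel: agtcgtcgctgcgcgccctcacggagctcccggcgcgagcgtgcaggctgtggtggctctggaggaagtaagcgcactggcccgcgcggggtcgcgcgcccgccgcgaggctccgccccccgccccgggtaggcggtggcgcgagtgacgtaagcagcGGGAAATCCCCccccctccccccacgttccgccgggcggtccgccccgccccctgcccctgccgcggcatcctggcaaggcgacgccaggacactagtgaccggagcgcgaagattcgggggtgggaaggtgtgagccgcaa
Tnfaip3: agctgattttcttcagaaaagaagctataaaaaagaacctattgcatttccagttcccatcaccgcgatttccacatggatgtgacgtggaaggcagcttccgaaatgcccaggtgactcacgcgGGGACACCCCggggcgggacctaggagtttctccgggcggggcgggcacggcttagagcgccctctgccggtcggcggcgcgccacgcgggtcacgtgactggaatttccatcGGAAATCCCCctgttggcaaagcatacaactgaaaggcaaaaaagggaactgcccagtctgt
Nfkbia: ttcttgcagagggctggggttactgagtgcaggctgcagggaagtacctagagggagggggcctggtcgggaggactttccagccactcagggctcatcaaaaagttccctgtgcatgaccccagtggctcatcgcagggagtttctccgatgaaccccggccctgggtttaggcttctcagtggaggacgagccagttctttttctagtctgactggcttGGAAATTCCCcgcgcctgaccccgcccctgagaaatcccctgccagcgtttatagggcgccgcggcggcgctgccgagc
Nfkb2: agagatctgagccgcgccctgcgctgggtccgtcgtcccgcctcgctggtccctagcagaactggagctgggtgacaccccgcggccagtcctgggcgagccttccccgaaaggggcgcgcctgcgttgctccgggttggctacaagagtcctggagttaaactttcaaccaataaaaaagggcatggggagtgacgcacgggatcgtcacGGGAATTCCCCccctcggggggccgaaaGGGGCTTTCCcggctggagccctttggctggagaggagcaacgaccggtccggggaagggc
The run in Rel began at position -92 from the start and that in Nfkbia at -29. The runs in Tnfaip3 began at -125 and -12, and those in Nfkb2 at -39 and -11. The other Tnfaip3 window, at a different annotated start, held no match. Nfkb2 had further windows at later starts, with matches at -236 and 11 in the second and at -225 in the third. These windows overlap, and the match at 11 in the second is the one at -225 in the third. Matches were thus present in genes that rose and in genes that were not called. A match describes the letters of the window and does not show binding.

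Among the canonical subunits, the c-Rel transcript rose, that of RelA passed only the adjusted p, and that of p105/p50 overlapped between the groups. Rel (ENSMUSG00000020275, GRCm39 chr11:23686847-23721264, minus strand), the subunit that is largely restricted to lymphoid and myeloid cells, was at 248, 226 and 242 CPM in the vehicle-treated samples and at 301, 311 and 298 CPM in the S1P-treated samples. All 3 S1P values were above all 3 vehicle values. The mean went from 238 ± 11.6 to 303 ± 6.53 CPM (SD, n = 3 each), a fold of 1.27 (95% interval 1.15 to 1.40) and a log2FC of 0.35 ± 0.07 (SE, edgeR, BH-adjusted p = 0.00277). With an offset for GC content, which is 43.8% in the Rel transcripts, the log2FC was 0.29 (edgeR, BH-adjusted p = 0.00586), just under the fold threshold.

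Rela (ENSMUSG00000024927, chr19:5687493-5698161, plus strand) encodes the subunit with the main transactivation domain of the p50-RelA dimer. It was at 77.4, 72.8 and 72.3 CPM under vehicle and at 85.9, 91.7 and 81.5 CPM under S1P. The groups did not overlap, but the distance from the highest vehicle value to the lowest S1P value was small. The log2FC of 0.22 ± 0.07 (SE) passed the adjusted p (edgeR, 0.0382) and stayed under the fold threshold, and its 95% interval ran from 0.06 to 0.37. The adjusted p was above 0.05 in 7 of the 16 alternative fits, with a range of 0.0165 to 0.208.

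Nfkb1 (ENSMUSG00000028163, chr3:135290264-135397742, minus strand), which encodes p105 and its product p50, was at 523, 465 and 514 CPM under vehicle and at 535, 483 and 523 CPM under S1P. The groups overlapped, and replicate 2 was the lowest sample in both. The log2FC was 0.04 ± 0.08 (SE, edgeR, BH-adjusted p = 0.749), and its 95% interval, from -0.13 to 0.20, left out changes of the size called for Rel.

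Neither subunit of the non-canonical arm was called. Nfkb2 (ENSMUSG00000025225, chr19:46292759-46303812, plus strand), the source of p100 and p52, was at 159, 125 and 150 CPM under vehicle and at 165, 149 and 155 CPM under S1P. The lowest S1P values lay within the vehicle range. The log2FC was 0.11 ± 0.09 (SE, 95% interval -0.08 to 0.30, edgeR, BH-adjusted p = 0.380), and 0.01 without vehicle replicate 2. Of the exon bases of Nfkb2, 38.1% overlap genes on the opposite strand, mainly Psd (139 to 343 counts per library) and 4833438C02Rik (49 to 93 counts). The libraries were strand-specific, but the strand setting of the counting is not given in the sources used here, so reads from these genes could have been mixed.

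Relb (ENSMUSG00000002983, chr7:19339017-19363425, minus strand), which encodes the partner of p52, was at 42.4, 34.4 and 43.3 CPM under vehicle and at 41.9, 29.0 and 36.7 CPM under S1P. The lowest value of each group belonged to replicate 2, and the groups overlapped. The log2FC of -0.15 ± 0.13 (SE) had a 95% interval from -0.43 to 0.13 (edgeR, BH-adjusted p = 0.404), the widest interval of the 10 genes. Without S1P replicate 2 the log2FC was -0.03.

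**Figure D2:**
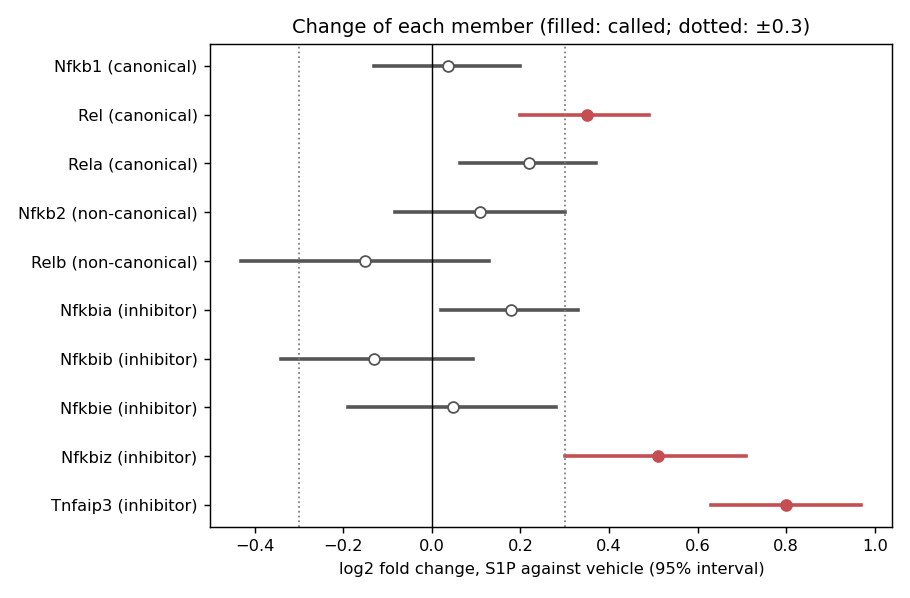
Log2 fold change of each NF-kB gene in S1P-treated against vehicle-treated cultures (horizontal axis, points) with 95% intervals from edgeR (bars), filled where called, with dotted lines at the fold threshold of 0.3 in either direction. Rel at 0.35, Nfkbiz at 0.51 and Tnfaip3 at 0.80 are the filled points.

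The balance of the arms was measured within each sample, as the mean log2 CPM of Nfkb2 and Relb minus the mean log2 CPM of Nfkb1, Rel and Rela. These are differences of levels not scaled to transcript length, so only their change between groups is read. The difference was -1.39, -1.58 and -1.36 under vehicle and -1.53, -1.86 and -1.63 under S1P. The non-canonical subunits were thus lower relative to the canonical subunits by 0.23 on average under S1P (-1.45 ± 0.12 against -1.67 ± 0.17, SD, n = 3 each), but the groups overlapped, since vehicle replicate 2 was lower than S1P replicate 1. Leaving out S1P replicate 2 brought the change to -0.13, and leaving out S1P replicate 1 to -0.30. From fitted log2 fold changes it was -0.22, and from those fitted with the GC offset -0.17.

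Some pairs of subunits were also compared. Nfkb2 was not set against Rel or Rela, nor Relb against Nfkb1, so the pairs alone do not show which subunits carried the arm difference. The fitted log2FC of each subunit gives more. Nfkb2 (0.11) and Relb (-0.15) moved in opposite directions and nearly cancelled, with a midpoint of -0.02. Rel (0.35), Rela (0.22) and Nfkb1 (0.04) were all positive. The fitted arm difference thus lay mostly on the canonical side, in Rel and Rela, rather than in a joint fall of the non-canonical subunits. Relb minus Rel was -2.54, -2.71 and -2.48 under vehicle and -2.84, -3.41 and -3.02 under S1P, with no overlap and a change of -0.51, or -0.35 without S1P replicate 2. Relb minus Rela changed by -0.38, from -0.89 ± 0.17 to -1.28 ± 0.33 (SD, n = 3 each), with overlapping groups, and by -0.20 without S1P replicate 2. For the subunits that are made as precursors, Nfkb2 minus Nfkb1, the change was 0.08, from -1.79 ± 0.09 to -1.71 ± 0.03, and the groups overlapped. Within the canonical arm, Rel minus Rela was 1.68, 1.63 and 1.74 under vehicle and 1.81, 1.76 and 1.87 under S1P. The lowest S1P value was only just above the highest vehicle value, and the change was 0.13. With the GC offset the log2FC of Rela was 0.30 (just under the fold threshold before rounding, edgeR, BH-adjusted p = 0.0165) and that of Rel 0.29, so this difference did not hold. Transcript levels do not measure p100 processing or nuclear entry of any dimer.

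**Figure D3:**
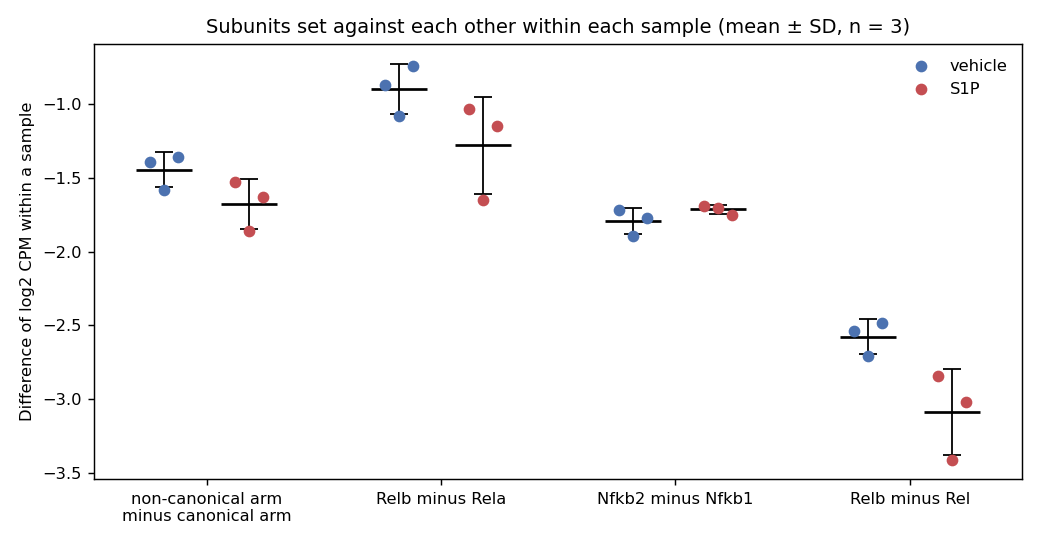
Differences of log2 CPM between NF-kB genes within each sample (vertical axis), with a point for each of the 3 vehicle-treated and 3 S1P-treated samples and the mean with its SD. The groups are separate for Relb minus Rel, and overlap for the arms, Relb minus Rela and Nfkb2 minus Nfkb1.

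Tnfaip3 showed the largest change of the 10 genes. Its product A20 removes activating ubiquitin chains from signaling proteins upstream of IKK. Tnfaip3 (ENSMUSG00000019850, chr10:18874201-18891405, minus strand) was at 68.9, 62.9 and 61.9 CPM under vehicle and at 118, 104 and 115 CPM under S1P. Every S1P value was far above every vehicle value, and the mean went from 64.6 ± 3.79 to 112 ± 7.67 CPM (SD, n = 3 each). The fold was 1.74 (95% interval 1.55 to 1.95) and the log2FC 0.80 ± 0.08 (SE, edgeR, BH-adjusted p = 4.82e-05). It was called in all 16 alternative fits, with a log2FC between 0.76 and 0.85.

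Nfkbiz also rose. It encodes an atypical IkB protein that acts in the nucleus on p50 dimers and can help activate a subset of NF-kB targets rather than only inhibit. Nfkbiz (ENSMUSG00000035356, chr16:55631738-55659262, minus strand) was at 29.1, 25.8 and 30.7 CPM under vehicle and at 39.5, 44.1 and 38.2 CPM under S1P. The groups were separate, with means of 28.5 ± 2.47 and 40.6 ± 3.06 CPM (SD, n = 3 each). The fold was 1.42 (95% interval 1.23 to 1.63) and the log2FC 0.51 ± 0.09 (SE, edgeR, BH-adjusted p = 0.00216), and it was called in all 16 alternative fits.

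The classical cytoplasmic IkB genes were not called. Nfkbia (ENSMUSG00000021025, chr12:55535332-55539432, minus strand), which encodes the IkB-alpha that is degraded and resynthesized during canonical signaling, was at 87.6, 83.8 and 93.8 CPM under vehicle and at 95.1, 104 and 100 CPM under S1P. The groups did not overlap, though the nearest samples were close. The log2FC was 0.18 ± 0.07 (SE, 95% interval 0.02 to 0.33, edgeR, BH-adjusted p = 0.0837). The difference between Tnfaip3 and Nfkbia within a sample was -0.35, -0.41 and -0.60 under vehicle and 0.32, -0.01 and 0.19 under S1P on the log2 CPM scale, a change of 0.62 with no overlap. Tnfaip3 thus stood higher relative to Nfkbia in every S1P-treated sample than in any vehicle-treated sample. This pair sets the gene with the largest change against one that was not called, so its separation mainly restates the rise of Tnfaip3.

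Nfkbib (ENSMUSG00000030595, chr7:28457486-28466937, minus strand) encodes IkB-beta, which is degraded more slowly than IkB-alpha. It was at 37.9, 35.2 and 42.5 CPM under vehicle and at 31.5, 36.2 and 38.6 CPM under S1P. The groups overlapped, with a log2FC of -0.13 ± 0.10 (SE, 95% interval -0.34 to 0.09, edgeR, BH-adjusted p = 0.377), and 29.4% of its exon bases overlap genes on the opposite strand. Nfkbie (ENSMUSG00000023947, chr17:45866585-45874661, plus strand), which encodes IkB-epsilon, was at 28.4, 23.6 and 28.9 CPM under vehicle and at 30.4, 28.3 and 24.8 CPM under S1P. It too overlapped between groups, with a log2FC of 0.05 ± 0.11 (SE, 95% interval -0.19 to 0.28, edgeR, BH-adjusted p = 0.770).

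The level of the genes relative to each other was taken as CPM per kilobase of the canonical transcript. Under vehicle Nfkb1 was highest at 106 ± 6.66, followed by Nfkbia at 56.0 ± 3.19 CPM per kilobase (SD, n = 3 each). Rel at 30.7 ± 1.49 and Nfkbib at 28.1 ± 2.69 overlapped in their samples, as did Nfkbib and Rela at 27.3 ± 1.02, while Nfkb2 at 21.5 ± 2.58 lay below all 3. Relb at 11.8 ± 1.44 and Nfkbie, whose samples lay between 9.61 and 11.7, overlapped, and so did Nfkbie and Tnfaip3 at 9.35 ± 0.548. Nfkbiz was lowest, at 7.05 ± 0.610. Under S1P Tnfaip3 reached 16.3 ± 1.11 CPM per kilobase and moved from rank 9 to rank 7, with each of its S1P samples above each S1P sample of Nfkbie and Relb. By the median length of its coding transcripts Tnfaip3 was at 11.5 under vehicle and moved from rank 8 to rank 7. By either length Relb moved from rank 7 to rank 9, and Nfkbib and Rela exchanged ranks 4 and 5. Nfkbiz at 10.0 ± 0.757 overlapped Relb at 10.6 ± 1.90 under S1P.

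**Figure D4:**
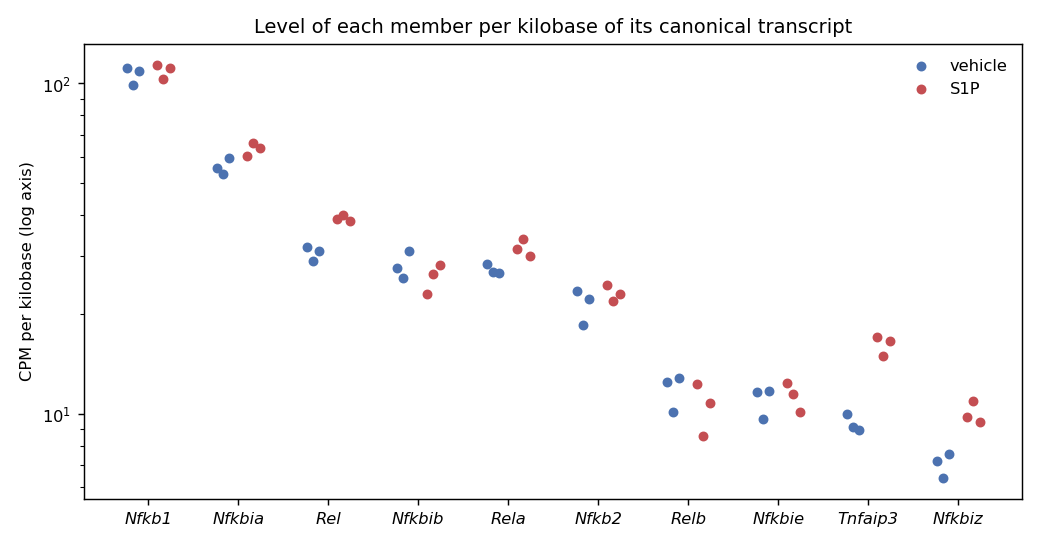
Level of each NF-kB gene in CPM per kilobase of its canonical transcript on a log axis, with 3 vehicle-treated and 3 S1P-treated samples as points, ordered by the vehicle mean. Nfkb1 was highest in both groups, and Tnfaip3 went from a mean of 9.35 to 16.3.

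The spread within groups differed between the genes. The pooled within-group SD of log2 CPM was lowest for Rel, at 0.06, and highest for Relb, at 0.23. The median over all tested genes was 0.14. The 95% interval of Relb held a decrease as large as the increase of Rel.

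Of 81 further genes of the pathway, 78 were tested, 17 were called higher and 7 lower, with a median log2FC of 0.06. Without S1P replicate 2 the counts were 16 and 5. Of all tested genes 12.7% were called higher and 10.4% lower, the shares against which this count and those of the lists that follow are to be read. The 5 genes of the IKK complex and its related kinases had no call in edgeR, DESeq2 or limma-voom, while 1 was lower at an unadjusted edgeR p under 0.05. Chuk, which encodes IKK-alpha, the kinase shared by both arms, went from 126 ± 6.10 to 107 ± 10.8 CPM (SD, n = 3 each), and its log2FC of -0.24 (edgeR, BH-adjusted p = 0.0432) stayed under the fold threshold. It was called lower with the GC offset and block together (-0.30, edgeR, BH-adjusted p = 0.00907) and without S1P replicate 3 (-0.31, 0.0444), and was at -0.16 without S1P replicate 2. Ikbkb, for IKK-beta, had a log2FC of -0.11 (edgeR, BH-adjusted p = 0.257) and Ikbkg, for the scaffold NEMO, one of 0.01 (edgeR, BH-adjusted p = 0.935).

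In the list that leads from the antigen receptor to IKK, 2 of 9 genes rose and 1 fell, beside 12.7% and 10.4% of all tested genes. Malt1, which encodes a paracaspase that cleaves A20, was at 351, 342 and 332 CPM under vehicle and at 539, 694 and 517 CPM under S1P. All S1P values were well above the vehicle values, with a log2FC of 0.77 ± 0.10 (SE, edgeR, BH-adjusted p = 0.000325). Tab2, an adaptor of the kinase TAK1, rose by 0.31 (edgeR, BH-adjusted p = 0.0218), and lost its call in 8 of the 16 alternative fits, being at 0.20 without S1P replicate 2. Prkcq, for the kinase PKC-theta that acts after antigen receptor ligation, fell from 185 ± 4.57 to 147 ± 2.96 CPM (SD, n = 3 each), with a log2FC of -0.34 (edgeR, BH-adjusted p = 0.00228).

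Of 10 tested genes upstream of the non-canonical arm, 4 rose and 1 fell, beside 12.7% and 10.4% of all tested genes. The median log2FC of this list was 0.28. Tnfrsf9, which encodes the costimulatory receptor 4-1BB, went from 324 ± 26.5 to 499 ± 17.6 CPM (SD, n = 3 each), with a log2FC of 0.62 (edgeR, BH-adjusted p = 0.000201). Tnfrsf4, which encodes OX40, went from 70.2 ± 0.483 to 107 ± 5.85 CPM, a log2FC of 0.60 (edgeR, BH-adjusted p = 0.000121). Both receptors also signal through the canonical arm. Birc2, for the ubiquitin ligase cIAP1 that marks NIK for degradation, rose from 71.7 ± 1.26 to 98.0 ± 0.113 CPM, by 0.45 (edgeR, BH-adjusted p = 0.000437).

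Map3k14, which encodes NIK itself, was at 33.3, 34.8 and 33.4 CPM under vehicle and at 46.0, 40.0 and 40.5 CPM under S1P. The groups were separate, with a log2FC of 0.32 ± 0.08 (SE, edgeR, BH-adjusted p = 0.0133). Traf3, for the adaptor that brings NIK to cIAP, was at 87.7, 84.1 and 84.8 CPM under vehicle and at 70.2, 60.8 and 73.3 CPM under S1P. It fell by 0.33 on the log2 scale (edgeR, BH-adjusted p = 0.00959). Both calls were near the fold threshold. Map3k14 lost its call in 5 of 16 alternative fits, being at 0.25 without S1P replicate 1, with an BH-adjusted edgeR p of 0.0622 without vehicle replicate 1 and 0.0625 without vehicle replicate 3. Traf3 lost its call in 3, being at -0.25 without S1P replicate 2 and -0.26 with the GC offset.

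Of the 3 other IkB genes, 1 was called. Bcl3, which encodes a nuclear IkB protein that binds p50 and p52 dimers, was at 18.2, 17.8 and 18.4 CPM under vehicle and at 23.8, 26.9 and 22.8 CPM under S1P. It rose by 0.43 ± 0.09 on the log2 scale (SE, edgeR, BH-adjusted p = 0.00593). Nfkbid, for the nuclear IkB-NS, was at 24.2, 22.2 and 26.6 CPM under vehicle and at 21.8, 15.2 and 21.7 CPM under S1P, a log2FC of -0.30 ± 0.13 (SE, edgeR, BH-adjusted p = 0.109). It was called lower with the replicate block (-0.31, edgeR, BH-adjusted p = 0.0420) and with no filter on low counts (-0.33, 0.0498), and was at -0.16 without S1P replicate 2. The nuclear IkB genes Nfkbiz and Bcl3 were thus called higher, while Nfkbid had a negative value that was called only under those alternatives.

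Of 11 other genes listed by hand as brakes of the pathway, 2 rose and none fell, against 12.7% of all tested genes called higher. Without S1P replicate 2 the count was 1. Whether each of these genes restrains the pathway in mouse T cells was not tested. Tnip3, for an A20-binding protein, went from 9.09 ± 2.50 to 14.9 ± 1.33 CPM (SD, n = 3 each), with a log2FC of 0.73 (edgeR, BH-adjusted p = 0.00826). Rnf11, for a partner of A20 in its ubiquitin-editing complex, rose by 0.34 (edgeR, BH-adjusted p = 0.0148) and lost its call in 6 of 16 alternative fits, being at 0.26 without S1P replicate 2. Cyld, for another deubiquitinase of the pathway, had a log2FC of 0.05 (edgeR, BH-adjusted p = 0.587). Among 10 genes of TNF receptor adaptors and the linear ubiquitin ligase, none was called in edgeR, DESeq2 or limma-voom, with 2 higher and 1 lower at an unadjusted edgeR p under 0.05.

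**Figure D5:**
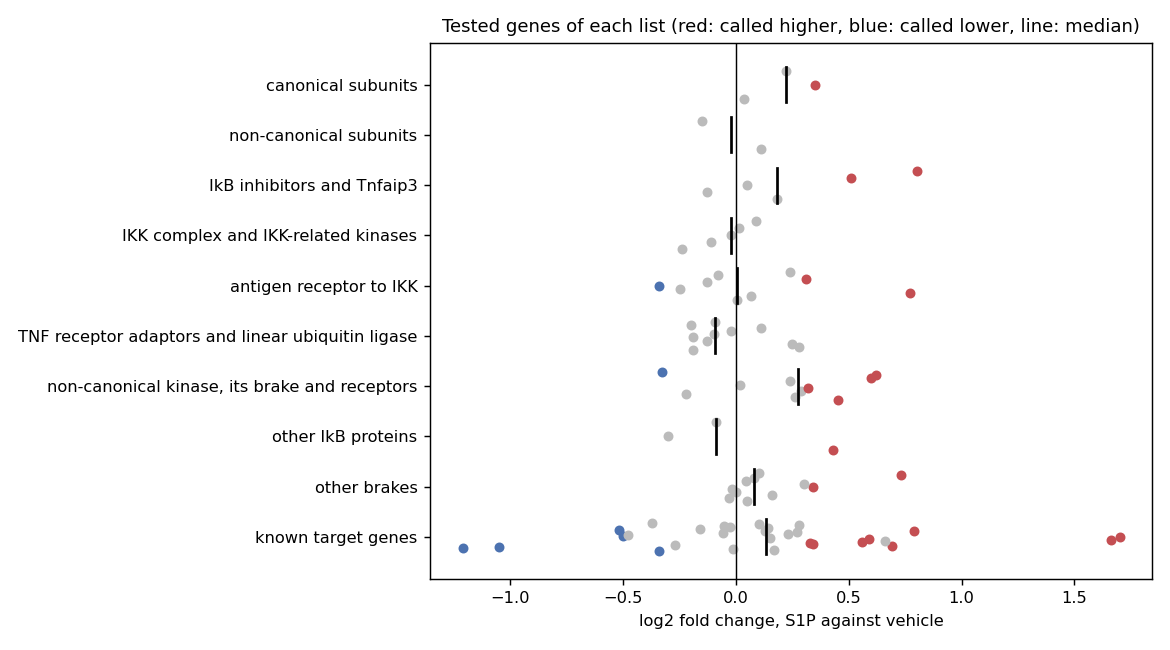
Log2 fold change of every tested gene in each list of the NF-kB pathway (horizontal axis, a point per gene), in red where called higher, blue where called lower and grey otherwise, with the median of a list as a black line. Every list but that of the canonical subunits, whose points all lie above 0, holds points on both sides of 0. Cxcl10 and Ier3 at 1.66 and 1.70 are furthest to the right.

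Known NF-kB target genes moved in both directions, with 8 of 30 called higher and 5 lower, beside 12.7% and 10.4% of all tested genes, and a median log2FC of 0.13. Without S1P replicate 2 the counts were 9 and 4, and DESeq2 and limma-voom both called 4 lower. Ier3, an early response gene tied to cell survival, went from 3.11 ± 0.610 to 10.1 ± 1.36 CPM (SD, n = 3 each), with a log2FC of 1.70 (edgeR, BH-adjusted p = 8.69e-05). Cxcl10, a chemokine that draws CXCR3-bearing T cells, went from 2.65 ± 0.142 to 8.35 ± 1.54 CPM, a log2FC of 1.66 (edgeR, BH-adjusted p = 0.000116). Both stayed at low levels. Ccl3 and Ccl4, inflammatory chemokines of activated CD8+ T cells, fell, from 124 ± 13.1 to 53.5 ± 5.54 CPM for Ccl3 and from 59.7 ± 6.24 to 28.7 ± 1.47 CPM for Ccl4 (SD, n = 3 each). Their log2FC values were -1.21 (edgeR, BH-adjusted p = 2.10e-05) and -1.05 (edgeR, BH-adjusted p = 3.62e-05). Of the exon bases of Ccl3, 35.6% overlap a gene on the opposite strand, as do 34.8% of those of Ier3. The other targets called were named after their values were seen. On the log2 scale Junb (0.79), Ccl5 (0.69), Gadd45b (0.59), Cflar (0.56), Cd69 (0.34) and Cd83 (0.33) were higher, with overlapping groups for Ccl5. Lower were Lta (-0.52), whose groups overlapped, Ifng (-0.50) and Bcl2a1b (-0.34), the last of which has near-identical copies that read counting can split. In the same samples Cd8a fell by 0.67 and Cd8b1 by 0.55 on the log2 scale, while of the other T cell markers Cd2 rose by 0.33, Cd3d was at -0.28 and Cd3g at -0.21 (past the adjusted p but under the fold threshold), Cd3e was at 0.15, Cd5 at 0.07, Trac at -0.08 and Lck at -0.04, and the part that cell composition had in these changes was not tested.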

How the data were processed

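RNA was measured by poly(A)-selected, strand-specific sequencing in 6 cultures, 3 per group. Per the submitters' processing notes, reads were processed with Trim Galore, STAR, featureCounts and DESeq2 on GRCm39, and the authors deposited raw read counts per Ensembl gene. Annotation release and strand setting of the counting are not given in the sources used here. A filter on low counts (filterByExpr) kept 13299 genes, and edgeR 4.0.16 (R 4.3.3) was run with TMM scaling and the quasi-likelihood test, p-values being adjusted over all genes tested. The thresholds of 0.05 and 0.3 follow the study. Log2 CPM used a prior count of 2. Symbols and coordinates came from GENCODE (GRCm39), matching 56323 of 56941 identifiers. The 0.0240% of counts without a symbol stayed in the library sizes and tests.

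Alternatives were DESeq2 1.42.0, limma-voom (limma 3.58.1), RLE, upper-quartile and total-count scaling, no filter, a minimum of 10 counts, a replicate block, a GC offset (lowess span 0.3), both together, and each replicate left out. Of the within-sample differences only that of the arms was in the written plan, and the gene pairs were not. The within-sample differences with fitted fold changes and with the GC offset were added after the data were seen. The 10 genes and the lists were chosen with earlier results of these data known. Named beyond them were up to 4 called genes per list with the largest change, a log2 CPM averaging 1 or more and no overlap between groups, plus 9 regulators whatever their change, of which 1 is not reported here. The remaining called targets and marker genes were named after their values were seen. No 2 libraries of the same group matched within sampling noise. The test was checked on simulated data.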

Additional observations from a re-analysis of the deposited data

How the results depend on the processing

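Over the 16 alternatives, the count of NF-kB genes called higher was between 2 and 3 and the count called lower was 0 in each. Rel was lost with the GC offset, at 0.29 with it alone and 0.29 with it and the block together (edgeR adjusted p = 0.00586 and 0.00755). Tnfaip3 and Nfkbiz were called in each, and Rela and Nfkbia in none. Of 496 gene results under these alternatives, 468 kept their call, 24 lost it, 4 gained one and 0 reversed. All genes called ranged from 2119 (without vehicle replicate 3) to 3335 (no filter on low counts), and further pathway genes from 12 to 20 higher and from 5 to 9 lower. Samples of the same replicate number correlated at 0.12, -0.01 and 0.05 in their deviations from the group means, and not every sample correlated best with its own number, so the numbers were not taken as pairs. With the replicate block, 3120 genes were called (1697 higher, 1423 lower), NF-kB genes called higher were 3, and pathway genes were 17 higher and 8 lower. The arm difference lay between -0.30 and -0.13 when a replicate was left out, and was -0.22 from fitted fold changes. With a replicate left out, the log2 fold change lay between -0.02 and 0.08 for Nfkb1, -0.20 and -0.04 for Nfkbib, and -0.04 and 0.12 for Nfkbie. Intervals of Rela, Nfkbia, Nfkb2, Relb, Nfkbib and Nfkbie are wide enough to hold changes near the fold threshold or past it, which these 3 samples per group could not resolve.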
